A study of Mus musculus with 12 samples.

Results

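What T3 added or removed where CORT was also given was measured by setting the 3 arrays of cells treated with T3 + CORT against the 3 arrays of cells treated with CORT, which together are 6 of the 12 arrays of the study. The arrays were chosen by their labels alone. HT-22 cells are a mouse hippocampal line immortalized with the SV40 T antigen, so all samples come from 1 line. The CORT group received 100 nM corticosterone for 4 h and the T3 + CORT group received 30 nM T3 (triiodothyronine) and 100 nM corticosterone for 4 h. Per the study's methods both hormones were in the medium from the same time. A CORT effect prevented by T3 and one reversed by it therefore cannot be told apart. The other 6 arrays are the T3 group, given 30 nM T3 for 4 h, and the vehicle group. Every group was grown in medium with serum depleted of both hormone classes and was treated without serum, with the same 0.03% DMSO and 0.001% ethanol in all. The 3 samples of a group come from a treatment done in triplicate, per the study's methods, and neither these nor the labels say whether the triplicates were separate cultures, so the p-values measure the spread between these samples, which may be technical.

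T3 binds thyroid hormone receptors, which sit on DNA at response elements built from the motif AGGTCA, often beside a retinoid X receptor, and which activate or repress genes through coactivators and corepressors. Corticosterone, the main glucocorticoid of rodents, binds the glucocorticoid receptor, which enters the nucleus, activates genes such as Fkbp5, Tsc22d3 and Per1 through palindromic response elements, and lowers many growth factor response and inflammatory genes. The hippocampus holds both receptor families, and Klf9, a Krüppel-like transcription factor, is a known target of both hormones there.

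Each array gave 1 normalized signal per probe on a linear scale, and a probe was tested where its signal reached the limit of detection, 87.0, on at least 3 of the 12 arrays, which left 17746 of 45281 probes. Between 16520 and 16544 probes reached the limit on each array. Replicates of a group correlated at 0.990 to 0.997, and the arrays that stood farthest from their own group were T3 replicates 2 and 1, with array weights of 0.28 and 0.48 against 0.65 to 2.11 for the others. Of 26 neuronal marker genes on the array 7 reached the limit, among them the enolase gene Eno2 (mean signal 154 in CORT and 151 in T3 + CORT), while the neuronal genes Map2, Rbfox3, Nefl and Snap25 were below it on every array, as was the astrocyte gene Gfap. Of 25 fibroblast and mesenchymal markers 20 reached the limit. In bulk RNA fewer cells of a type and less RNA per cell cannot be told apart.

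When T3 was added to CORT, a small set of genes changed, and most of the changes were decreases. At an adjusted p under 0.05 (limma, Benjamini-Hochberg over all tested probes), 99 probes differed between T3 + CORT and CORT, which is 0.558% of those tested: 25 were higher in T3 + CORT (0.141%) and 74 were lower (0.417%). They stand for 85 named genes, 24 higher and 61 lower, and 2 probes had no gene name. Of these genes 32 had another tested probe that did not pass. Of those 52 other probes 49 had the same sign as the probe that passed. The rises held the largest effects: 4 probes rose at least 2-fold, whereas no fall reached 2-fold, and the median fold was 1.38 among the rises and 1.45 among the falls. On none of the 99 probes did the CORT and T3 + CORT arrays overlap, while 16.7% of all tested probes had groups that did not overlap. The median difference over all tested probes was 0.005 on the log2 scale, and the median probe had a 95% interval of 0.20 to each side, and the smallest rise and fall that passed were 0.33 and -0.34. In data simulated with independent noise of the same spread on every array, 88% of probes changed 1.5-fold were called. At the limit that the study's methods give for this comparison, an unadjusted p under 0.02, 844 probes passed (4.76%), and 36 (0.203%) also differed by at least 1.5-fold. Leaving out any 1 of the 6 CORT and T3 + CORT arrays lowered the 99 to between 42 and 57 probes.

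**Figure D1:**
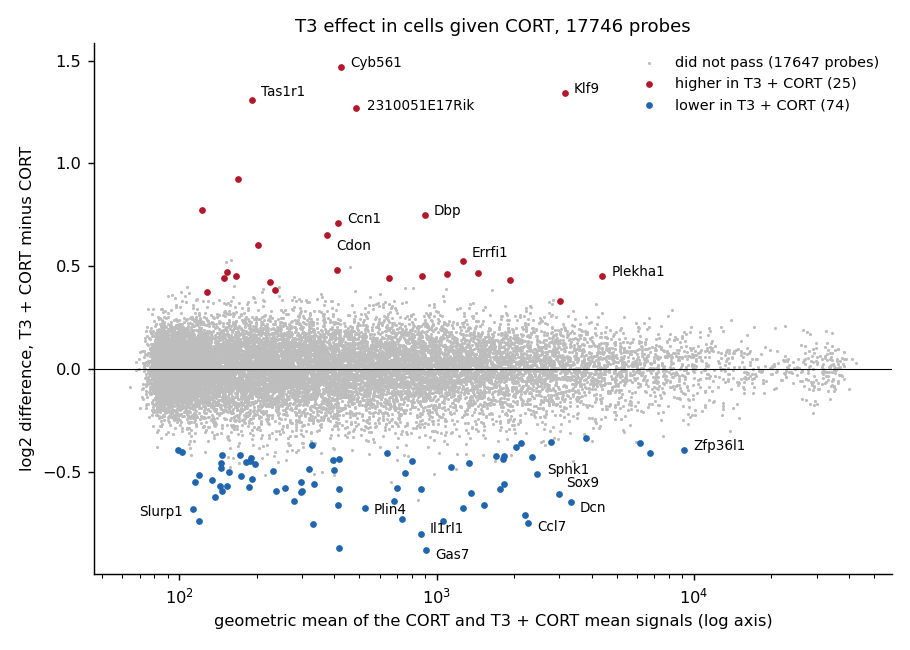
Log2 difference between T3 + CORT and CORT (vertical axis) against the geometric mean of the 2 groups' mean signals (log axis) for 17746 probes. The 25 probes that passed as higher (red) reach 1.47 and the 74 that passed as lower (blue) reach -0.88, with Cyb561, Klf9, Tas1r1 and 2310051E17Rik apart from all others.

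The rises are described in 3 sets, by whether CORT against vehicle passed the same threshold in the same fit, and in which direction. That contrast shares the CORT arrays with the comparison described here, so the sets order the genes and carry no test. Among the genes that CORT alone raised, the largest rise was that of Cyb561, the gene of a membrane protein that passes electrons from ascorbate across the membranes of secretory vesicles. Its signals were 254, 268 and 244 in CORT and 643, 682 and 805 in T3 + CORT, a 2.77-fold rise (log2 difference 1.47, 95% interval 1.28 to 1.66, adjusted p = 1.27e-07). CORT alone also set Cyb561 above vehicle, where the signals of 67.2, 67.9 and 67.3 were all under the limit. Klf9 read 2014, 1811 and 2099 in CORT and 4686, 4938 and 5411 in T3 + CORT, 2.54-fold higher (log2 difference 1.34, 1.16 to 1.53, adjusted p = 1.27e-07), after 875.5, 963 and 886.5 in vehicle. The groups lay far apart on both probes, and the lowest T3 + CORT array was above the highest CORT array by a wide margin. The uncharacterized transcript 2310051E17Rik had the same order of groups, with 369.8, 269 and 306 in CORT and 683, 771 and 810.2 in T3 + CORT (log2 difference 1.27, adjusted p = 0.000366) and 141, 138 and 152 in vehicle. Dbp, a clock-controlled transcription factor of the PAR bZIP family, read 716, 618 and 740.5 in CORT and 1238, 1233 and 1018 in T3 + CORT, a 1.68-fold rise (log2 difference 0.75, 0.54 to 0.96, adjusted p = 0.000873). Errfi1 encodes an inhibitor of the EGF receptor and is itself a glucocorticoid-induced gene. Its signals were 1026, 1050.2 and 1070.5 in CORT and 1516, 1418 and 1605 in T3 + CORT, 1.44-fold higher (log2 difference 0.53, 0.33 to 0.73, adjusted p = 0.0121). Tas1r1, a subunit of the umami taste receptor, gave signals of 113, 128 and 124 in CORT and 276, 317 and 311 in T3 + CORT, 2.48-fold higher (log2 difference 1.31, 1.07 to 1.54, adjusted p = 7.64e-06). Its vehicle signals of 105, 86.5 and 91.8 lay around the limit of detection. The uncharacterized transcript E230024B12Rik rose by 0.92 (adjusted p = 7.13e-05). Against vehicle, the log2 differences of CORT alone were 1.12 for Klf9, 1.12 for 2310051E17Rik, 0.58 for Dbp, 0.54 for Errfi1, 0.37 for Tas1r1 and 0.27 for E230024B12Rik (adjusted p = 0.0499), and none is given for Cyb561. Ear3, a member of the mouse eosinophil-associated ribonuclease family whose near-identical copies can share a probe, rose from 154.5, 146 and 189.9 to 214, 249 and 279.9 (log2 difference 0.60, adjusted p = 0.0132). Its other tested probe did not pass.

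A second set rose from a level at which CORT alone had not passed against vehicle. Plekha1, the gene of a pleckstrin homology adaptor that binds a phosphoinositide, rose evenly from 3794, 3948 and 3545 to 5171, 5165 and 5108 (log2 difference 0.45, adjusted p = 0.00603), and CORT minus vehicle was -0.02. Npr3, the clearance receptor for natriuretic peptides, rose at 1 of its 3 tested probes, from 121, 119 and 152 to 168, 184 and 188 (log2 difference 0.47, adjusted p = 0.036). Trp53inp2, an autophagy gene, rose by 0.42 (adjusted p = 0.0355) and Osgep, a tRNA modification enzyme, by 0.43 (adjusted p = 0.0132). The interferon-induced GTPase gene Gbp3 rose by 0.48 (adjusted p = 0.0118), and the uncharacterized transcript B430216N15Rik by 0.77 (adjusted p = 0.000519). Wfdc12, Rhobtb2 and Ppm1b rose by 0.44, 0.39 and 0.33 (adjusted p = 0.0191, 0.0401 and 0.0393), with CORT minus vehicle at -0.03, -0.03 and -0.02. Plekha1, Gbp3, Rhobtb2 and Ppm1b had other tested probes that did not pass, and a Rhobtb2 probe had a lower mean in T3 + CORT than in CORT.

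The remaining rises were in genes that CORT alone had lowered, and they included growth factor response genes. Ccn1, a secreted matricellular protein gene induced by serum, read 1078, 967 and 1034 in vehicle, 317, 324 and 331 in CORT and 509, 547 and 531 in T3 + CORT. At this probe it was 1.63-fold higher with T3 than in CORT alone (log2 difference 0.71, 0.40 to 1.01, adjusted p = 0.0333). The combined group stayed below every vehicle array. The study's RT-qPCR of this gene, there called Cyr61, had the reverse order, with a lower mean in T3 + CORT than in CORT. For Cyb561, Klf9, Tas1r1, Dbp, Errfi1 and Egr1 its mean was higher in T3 + CORT than in CORT, by little for Errfi1. The RT-qPCR mean of Dbp in CORT lay below vehicle, unlike on the arrays. The other 2 Ccn1 probes gave 0.53 (adjusted p = 0.0805) and 0.50 (adjusted p = 0.248). Srf, the serum response factor that drives immediate early and actin genes, read 1497, 1730.3 and 1773 in vehicle, 887, 957 and 949.7 in CORT and 1301, 1265 and 1284 in T3 + CORT (log2 difference 0.46, 0.28 to 0.65, adjusted p = 0.0191). A second, dimmer Srf probe gave 0.11 and did not pass. Egr1, a zinc finger immediate early transcription factor, was at 2192, 2394 and 1993 in vehicle, 737, 665 and 857 in CORT and 1004, 987 and 1087 in T3 + CORT (log2 difference 0.45, 0.24 to 0.66, adjusted p = 0.0498, at the edge of the threshold). In Ccn1, Srf and Egr1 alike the T3 + CORT arrays lay between the CORT and the vehicle arrays without overlapping either. Nuak1, an AMPK-related kinase, passed at both of its named probes (0.44 and 0.37, adjusted p = 0.0235 and 0.0334), with CORT minus vehicle at -0.59 and -0.50. Ostm1, a transmembrane protein that pairs with a lysosomal chloride transporter, rose by 0.47 (adjusted p = 0.0472), with CORT minus vehicle at -0.75, and Nrep by 0.45 (adjusted p = 0.033), with CORT minus vehicle at -0.31. Cdon, a cell surface co-receptor for Hedgehog proteins, rose from 321, 271 and 309 to 466, 448 and 498, 1.57-fold (log2 difference 0.65, 0.46 to 0.83, adjusted p = 0.000944). Unlike Ccn1, Srf and Egr1 it ended above its vehicle signals of 391, 379.7 and 366.

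**Figure D2:**
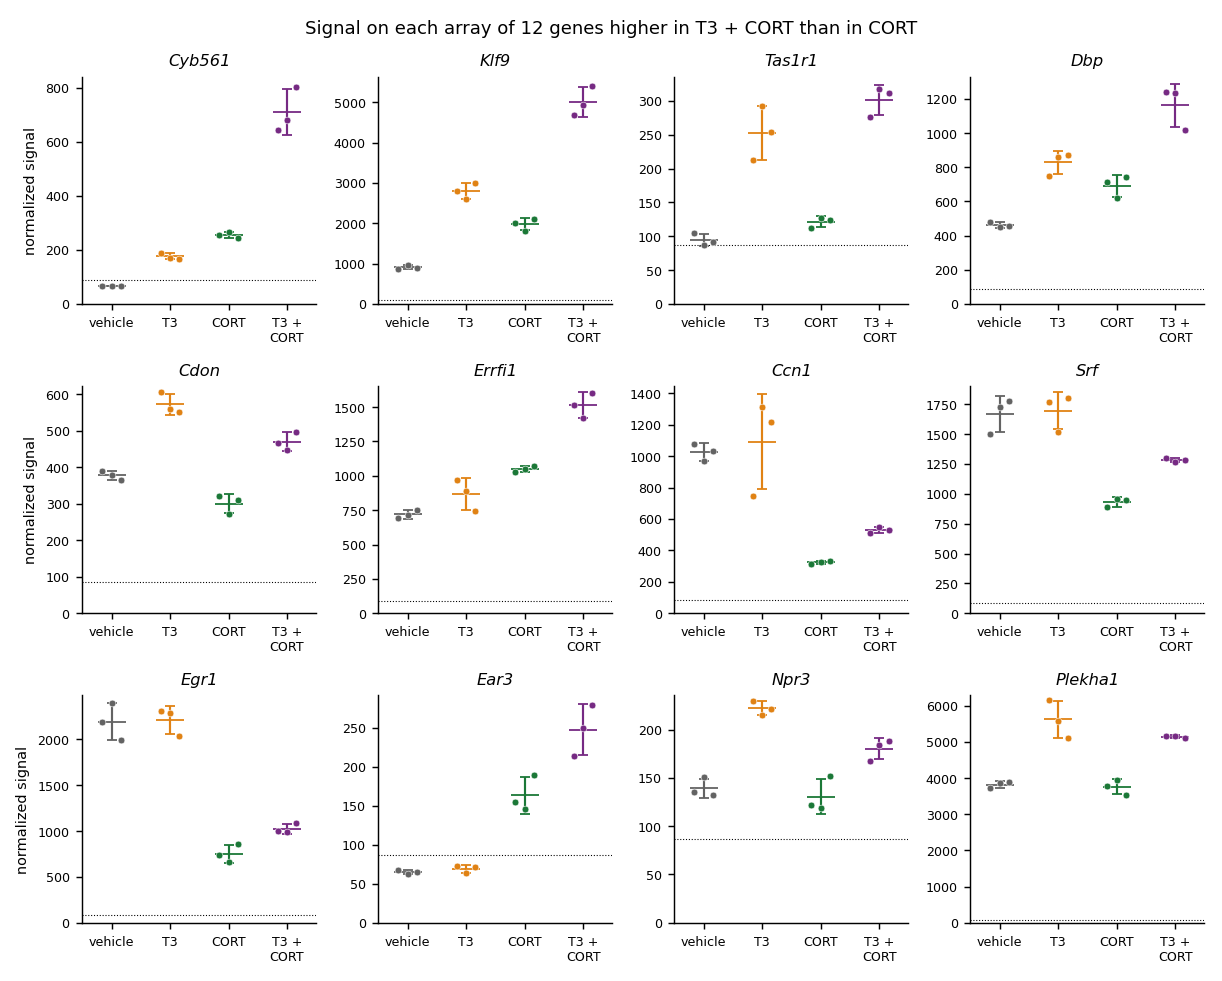
Normalized signal (linear axes from 0) of 12 genes that rose, on each of the 3 arrays of vehicle, T3, CORT and T3 + CORT; bars are means ± SD (n = 3) and the dotted line is the limit of detection, 87.0. Cyb561 and Klf9 climb with each hormone, while Ccn1, Srf and Egr1 are highest without CORT and sit between CORT and vehicle in T3 + CORT.

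Promoter sequence was read for the genes that passed from RefSeq windows (GRCm38.p6) of 250 bases before to 50 bases after each gene's start, which matched 16 of the 24 genes that rose and 35 of the 61 that fell. The Srf and Errfi1 windows are shown because the Srf window holds the sequence that its own protein binds, and Errfi1 is a rise whose window holds the T3 receptor motif. Capitals mark CArG boxes, the sequence that serum response factor binds, in Srf (chr17:46556113-46556412, minus strand, 2 boxes starting 82 and 62 bases before the start), and AGGTCA in Errfi1 (chr4:150853546-150853845, plus strand, 34 bases after the start).
Srf: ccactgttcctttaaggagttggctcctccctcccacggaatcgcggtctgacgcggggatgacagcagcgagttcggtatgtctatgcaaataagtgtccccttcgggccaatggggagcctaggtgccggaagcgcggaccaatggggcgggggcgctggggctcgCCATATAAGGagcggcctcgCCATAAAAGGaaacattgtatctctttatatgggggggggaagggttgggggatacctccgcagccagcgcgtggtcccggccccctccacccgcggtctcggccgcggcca
Errfi1: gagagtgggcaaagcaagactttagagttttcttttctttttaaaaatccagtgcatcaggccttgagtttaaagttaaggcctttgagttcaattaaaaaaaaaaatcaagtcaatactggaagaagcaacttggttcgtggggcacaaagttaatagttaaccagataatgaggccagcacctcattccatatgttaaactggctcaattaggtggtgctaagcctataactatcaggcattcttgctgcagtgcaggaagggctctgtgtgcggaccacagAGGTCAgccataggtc
On either strand, AGGTCA was in a window of 2 of the 16 genes that rose (12.5%, Errfi1 and Osgep), of 4 of the 35 genes that fell (11.4%, Ccdc134, Dysf, Il1rl1 and Sphk1) and of 18.1% of all genes with a window. A CArG box, a motif looked for after the values were seen, was in a window of 2 of 16 genes (12.5%, Srf and Ppm1b), 1 of 35 (2.86%, Prune2) and 1.81% of all genes. The T3 receptor's direct repeat (AGGTCA, 4 bases of any kind, AGGTCA) and the glucocorticoid element (AGAACA, 3 bases of any kind, TGTTCT) were in no window of either set, and in 0.0148% and 0.0111% of all genes. These matches describe letters in a short window and carry no test.

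Among the genes that T3 lowered in the presence of CORT, the largest, those of Gas7, Il1rl1 and Ccdc134, were in genes that CORT alone had set above vehicle at an adjusted p under 0.05. Gas7, a growth arrest gene whose protein binds membranes and actin in growing neurites, passed at 3 probes. At the probe with the largest fall the signals were 508, 586 and 525 in vehicle, 1221, 1201 and 1266 in CORT and 601, 673 and 733 in T3 + CORT, 1.84-fold lower than in CORT (log2 difference -0.88, -1.12 to -0.64, adjusted p = 0.000683). The other Gas7 probes gave -0.87 and -0.68 (adjusted p = 0.000873 and 0.000683). Il1rl1, the receptor for interleukin-33, went from 1249.6, 1140.0 and 1059 in CORT to 677, 642 and 648 in T3 + CORT, with 579, 640.1 and 569.6 in vehicle (log2 difference -0.81, 1.75-fold lower, adjusted p = 0.000331). For Il1rl1 the lowest T3 + CORT array was just above the highest vehicle array. For Gas7 the combined group's place above vehicle varied by probe: at the probe with the smallest fall it read 964, 994 and 1039 against 699, 702 and 700.3 in vehicle. Plin4, a coat protein of lipid droplets, was far above vehicle (142, 153 and 151) in both groups, at 693, 674 and 628 in CORT and 383, 447 and 417 in T3 + CORT (log2 difference -0.68, -0.87 to -0.48, adjusted p = 0.00106). Sphk1, the kinase that makes sphingosine 1-phosphate, read 946, 858 and 902 in vehicle, 3158, 2879 and 2737 in CORT and 2010.5, 2054 and 2084 in T3 + CORT (log2 difference -0.51, adjusted p = 0.00487). Fam107a, a stress- and glucocorticoid-induced actin regulator, fell from 232, 215 and 214 to 159, 157 and 168 (log2 difference -0.45, adjusted p = 0.0357). Ccdc134 fell by 0.75 (adjusted p = 0.014), and Psca and Tmem100 by 0.58 and 0.52 (adjusted p = 0.0051 and 0.0169). The probes named for Gsta1, a glutathione S-transferase with close paralogs that may share its signal, fell at 3 probes by 0.50, 0.46 and 0.37. Slurp1, a small secreted protein, fell from 131, 152 and 146 to 91.1, 83.1 and 93.0 (log2 difference -0.68, adjusted p = 0.00125). CORT minus vehicle for the probes of these genes lay between 0.81, at a Gas7 probe, and 2.16, at Plin4, leaving out Fam107a and Slurp1, whose vehicle signals were under the limit. Plpp1, a membrane phosphatase of lipid phosphates, fell at 3 probes by 0.74, 0.45 and 0.36 (adjusted p = 0.0402, 0.0111 and 0.03), with CORT minus vehicle at 0.53, 0.31 and 0.12.

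Matrix genes formed a second set of falls. Dcn, the gene of the collagen-binding proteoglycan decorin, fell from 4002, 4011 and 4392 in CORT to 2420.1, 2492 and 3047 in T3 + CORT (log2 difference -0.65, -0.83 to -0.47, adjusted p = 0.000847). Col6a2, a chain of collagen VI, fell from 308, 326 and 308 to 201, 222 and 207 (log2 difference -0.58, adjusted p = 0.000873), with its other probe at -0.34 (adjusted p = 0.396). Col6a1, the partner chain, fell by 0.34 (adjusted p = 0.0327) from 4439.8, 4150.5 and 4237 to 3379.8, 3436 and 3337. Mfap5, a microfibril protein gene, fell by 0.51 (adjusted p = 0.00791), and Timp3, an inhibitor of matrix metalloproteinases, by 0.42 (adjusted p = 0.0278). Dcn, Col6a1 and Timp3 each passed at 1 probe and had other tested probes that did not pass. The falls of these matrix genes reached at most 1.57-fold, at Dcn, and they did not share a direction under CORT alone: CORT minus vehicle was 0.50 for Dcn, 0.77 for Col6a2 and 0.58 for Col6a1 but -0.11 for Mfap5 and -0.42 for Timp3. The summed signal of the fibroblast and mesenchymal marker list was 45589.9 to 46686 in the CORT arrays and 38317 to 40601 in the T3 + CORT arrays, and 3 of its 20 tested genes fell (Dcn, Sox9 and Zeb2). The sum contains those genes, and without them it was 36992 to 38930.3 and 33149.7 to 35428. Of the 20 tested genes 16 had a negative and 4 a positive difference, with a median of -0.13. Acta2 was at 0.03, Col1a1 at -0.00, Col1a2 at 0.02 and Col3a1 at 0.05. Pdgfra was at -0.30, Snai2 at -0.25 and Vim at -0.22, none of which passed. The part of this shift in the matrix results was not tested.

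Other genes fell from a level at which CORT alone had not passed against vehicle. Aqp5, a water channel, gave 977, 866 and 997 in vehicle, 998, 907 and 943 in CORT and 583, 569 and 560.1 in T3 + CORT, 1.66-fold lower than in CORT (log2 difference -0.73, -0.91 to -0.56, adjusted p = 0.00023). Sox9, a transcription factor of neural stem cells and cartilage, read 3248, 3809 and 4062 in CORT and 2404, 2314 and 2548 in T3 + CORT (log2 difference -0.61, -0.79 to -0.43, adjusted p = 0.00118), and its second probe fell by 0.54 (adjusted p = 0.0344). Cd248, a cell surface glycoprotein of mesenchymal cells, fell from 2977, 2854 and 2646 to 1526, 1748 and 1918 (log2 difference -0.71, adjusted p = 0.000807), and its other tested probe did not pass. At the probes of these genes with signals given, the T3 + CORT arrays lay below the CORT, the vehicle and the T3 arrays alike. Ccnd1, the G1 cyclin D1, fell at 1 of 3 probes, from 2179, 2163 and 2103 to 1615, 1516 and 1198 (log2 difference -0.59, adjusted p = 0.0111), with the other probes at -0.37 and -0.41 (adjusted p = 0.0567 and 0.0925). Zfp36l1, an RNA-binding protein that promotes mRNA decay, was the brightest probe that passed and fell from 10942.5, 10031 and 10476 to 7877, 7832 and 8176 (log2 difference -0.40, adjusted p = 0.00471). Rapgef3, a cAMP-activated exchange factor for Rap proteins, fell by 0.63 (adjusted p = 0.00135). Flnc, an actin cross-linking filamin, fell by 0.64 (adjusted p = 0.022, CORT minus vehicle 0.27), Tubb2b, a tubulin, by 0.64 at 1 of 5 probes (adjusted p = 0.000519), and the cell cycle inhibitor gene Cdkn1a by 0.35 at 1 of 3 probes (adjusted p = 0.0468).

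In the last set T3 lowered genes that CORT alone also lowered. Ccl7, a monocyte-attracting chemokine, read 4612, 4669.9 and 4938 in vehicle, 3356, 2667 and 2836 in CORT and 1761, 1674 and 1801 in T3 + CORT (log2 difference -0.75, -0.96 to -0.54, adjusted p = 0.000873), and its second probe fell by 0.66 (adjusted p = 0.000512). Angptl4, an inhibitor of lipoprotein lipase and elsewhere a glucocorticoid-induced gene, read 517, 474 and 543 in vehicle, 340.2, 383 and 383 in CORT and 246, 245 and 241 in T3 + CORT (log2 difference -0.60, -0.79 to -0.41, adjusted p = 0.00254). Each group of arrays was separate from the next in both genes. Prl2c4, of the proliferin branch of the prolactin family, fell from 1677, 1709.9 and 1622 in CORT to 1221, 1056 and 1028 (log2 difference -0.60, adjusted p = 0.00106), with CORT minus vehicle at -0.26. Probes named for Prl2c2 fell by 0.56 and 0.58 and for Prl2c3 by 0.44 (adjusted p = 0.0481, 0.0357 and 0.0334), of which Prl2c2 had not passed in CORT against vehicle (-0.13 and 0.00), but these paralogs are nearly identical in sequence and their signals may come from the same transcripts.

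**Figure D3:**
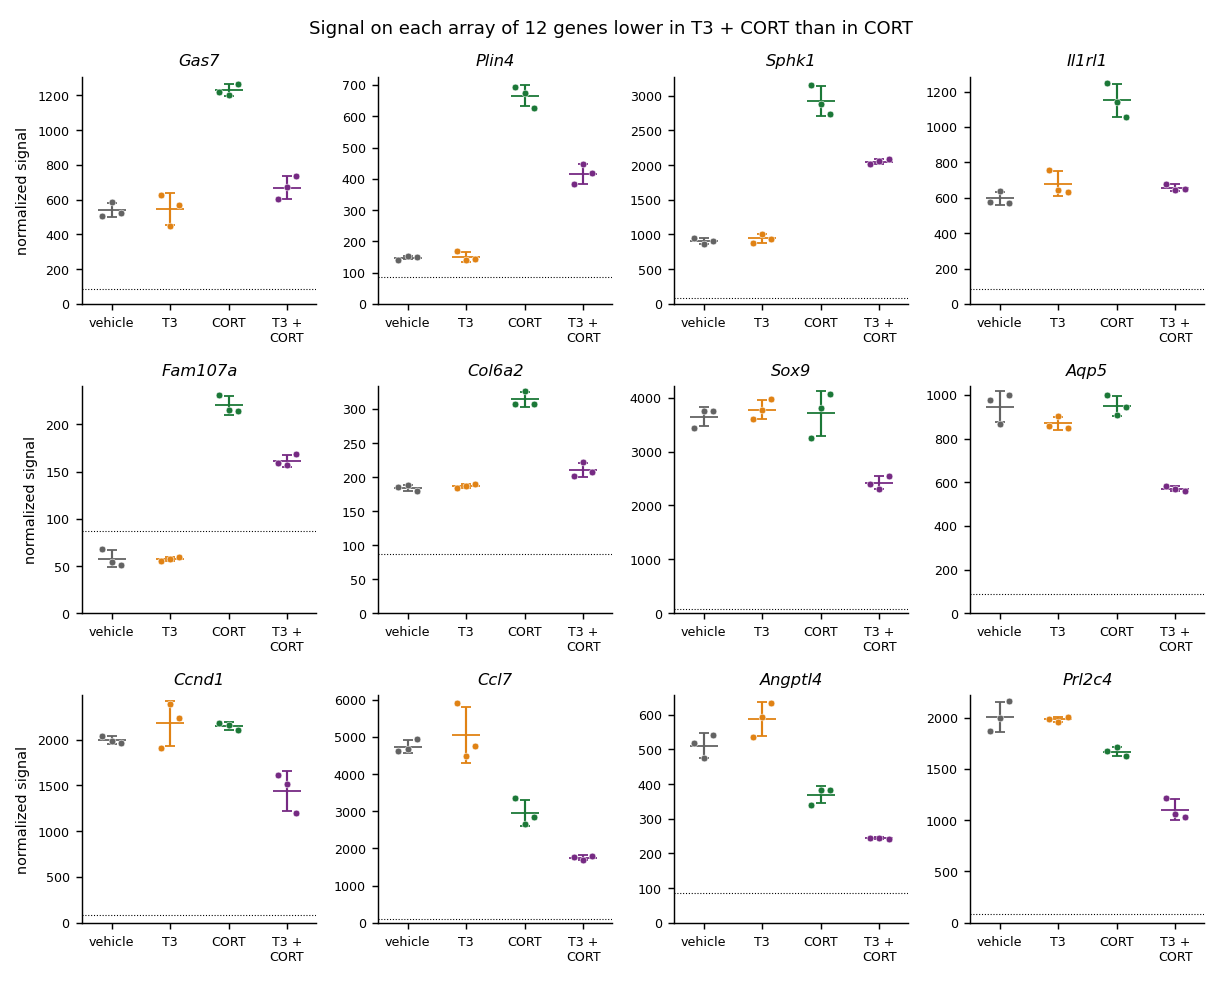
Normalized signal (linear axes from 0) of 12 genes that fell, on each of the 3 arrays of vehicle, T3, CORT and T3 + CORT; bars are means ± SD (n = 3) and the dotted line is the limit of detection, 87.0. Gas7, Plin4, Sphk1, Il1rl1, Fam107a and Col6a2 are highest in CORT, Aqp5 and Sox9 are low in T3 + CORT only, and Ccl7 and Angptl4 step down from vehicle to CORT to T3 + CORT.

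The windows of Il1rl1 (chr1:40439379-40439678, plus strand, AGGTCA 185 bases before the start) and Sphk1 (chr11:116532194-116532493, plus strand, 171 bases before) are shown as the falls with the largest CORT signals among those whose window holds AGGTCA, in capitals.
Il1rl1: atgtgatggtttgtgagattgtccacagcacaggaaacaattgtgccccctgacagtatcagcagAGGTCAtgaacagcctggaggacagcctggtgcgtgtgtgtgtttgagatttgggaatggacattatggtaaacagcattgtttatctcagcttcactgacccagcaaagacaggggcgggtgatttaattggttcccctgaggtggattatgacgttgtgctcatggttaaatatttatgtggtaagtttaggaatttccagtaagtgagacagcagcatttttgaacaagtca
Sphk1: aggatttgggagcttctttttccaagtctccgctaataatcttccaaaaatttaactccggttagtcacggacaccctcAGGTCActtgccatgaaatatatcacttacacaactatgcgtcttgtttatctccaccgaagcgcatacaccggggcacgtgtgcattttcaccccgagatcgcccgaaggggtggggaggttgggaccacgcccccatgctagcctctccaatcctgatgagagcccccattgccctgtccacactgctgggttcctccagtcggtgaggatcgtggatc

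The same dose of T3 was also given without CORT, on 6 other arrays, and there it changed fewer probes: 16 passed in T3 against vehicle (0.0902%), against 954 at an unadjusted p under 0.05 (5.38%). Of these 16 probes 10 also passed with CORT, all in the same direction, and 15 had the same sign; their median effect was 0.63 without CORT and 0.46 with it. The 10 are Cyb561, Klf9, Tas1r1, 2310051E17Rik, E230024B12Rik, Dbp, Cdon, Npr3, Plekha1 and Trp53inp2, all of them rises. The other 6 were Spon2, Ppm1h, a second Plekha1 probe and 3 probes without a gene name. The log2 effects without and with CORT were 1.62 and 1.34 for Klf9, 1.41 and 1.31 for Tas1r1, 0.84 and 0.75 for Dbp and 0.59 and 0.65 for Cdon. For Cyb561, whose vehicle signals were below the limit, T3 alone gave 189, 172 and 168, at least 2.02-fold higher. In linear signal the 10 did not agree. T3 added more with CORT than without for Klf9 (3037 against 1895), 2310051E17Rik (439.8 against 178) and Dbp (471 against 366), whose starting levels were higher with CORT. The same order held for Cyb561, E230024B12Rik and, by little, Tas1r1. T3 added less with CORT for Plekha1 (1385.9 against 1803.2), Cdon (170.0 against 193.3), Npr3 (49.4 against 82.6) and Trp53inp2 (65.6 against 99.2). On the log2 scale none of the 25 rises had a T3 effect that differed with CORT at an adjusted p under 0.05. At an unadjusted p under 0.05 there were 13 that were larger and 1, Klf9, that was smaller with CORT, where 6.27% of all probes passed in either direction, but the difference contains the arrays on which the 25 were called, so nothing is read from that count. For Klf9 the difference was -0.28 (-0.54 to -0.02, adjusted p = 0.743), and for Tas1r1 -0.11 (-0.44 to 0.23). Of the 15 rises that did not pass without CORT, Ccn1, Srf and Egr1 had T3 effects of 0.05, 0.03 and 0.02 there, and the difference with CORT did not pass either (0.66, 0.44 and 0.44, adjusted p = 0.454, 0.343 and 0.495).

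None of the 74 probes lowered by T3 with CORT passed in T3 against vehicle, and 30 had the same sign there, 40.5%, against 52.1% of all tested probes; their median effect without CORT was 0.03, within a range of -0.43 to 0.42. For 19 of the 74 the T3 effect with CORT differed from that without CORT at an adjusted p under 0.05, where 20 of all tested probes (0.113%) passed. This contrast contains the CORT and T3 + CORT arrays that chose the 74, so the 2 results are not independent. The 20 became 2 without vehicle replicate 2 or without CORT replicate 2, and 11 at most without any 1 of the CORT and T3 + CORT arrays. The largest of these differences were -1.07 for Flnc (-1.44 to -0.69, adjusted p = 0.0227), -0.99 for Il1rl1 (adjusted p = 0.00679) and -0.99 for a Gas7 probe (adjusted p = 0.0227). A second Gas7 probe followed at -0.89 and ILMN_2526333, which has no gene name, at -0.87. Next were Cd248 at -0.84, Ccl7 at -0.83, Angptl4 at -0.80, Nipal1 at -0.80 and Dysf, a membrane repair gene, at -0.80. The other Ccl7 probe did not pass this test. T3 without CORT changed its mean signal by -406.9, against 306.6 at the Ccl7 probe that passed. Flnc showed opposite signs, at 0.42 without CORT (adjusted p = 0.513) and -0.64 with it.

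The remaining probe whose T3 effects differed was that of Spon2, which encodes a secreted extracellular matrix protein. T3 alone raised it, from 2769, 2879 and 2523 in vehicle to 4766, 6094 and 4875 (log2 difference 0.94, adjusted p = 4.07e-05). With CORT present the signals were 2152, 2221 and 2260.1 without T3 and 1734, 1791 and 1898 with it (log2 difference -0.29, -0.48 to -0.10, adjusted p = 0.263). The T3 arrays thus stood above all others and the T3 + CORT arrays below all others, and the T3 effects differed by -1.23 (-1.50 to -0.96, adjusted p = 0.0005). Ppm1h, a protein phosphatase, rose with T3 alone (log2 difference 0.79, adjusted p = 8.06e-05) and gave 0.23 with CORT (adjusted p = 0.364), and the difference between these effects did not pass (-0.57, -0.81 to -0.32, adjusted p = 0.086). Over all 17746 probes the T3 effects with and without CORT correlated weakly across genes (Pearson's r 0.12, Spearman's rho 0.07), a description over probes that are not independent.

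**Figure D4:**
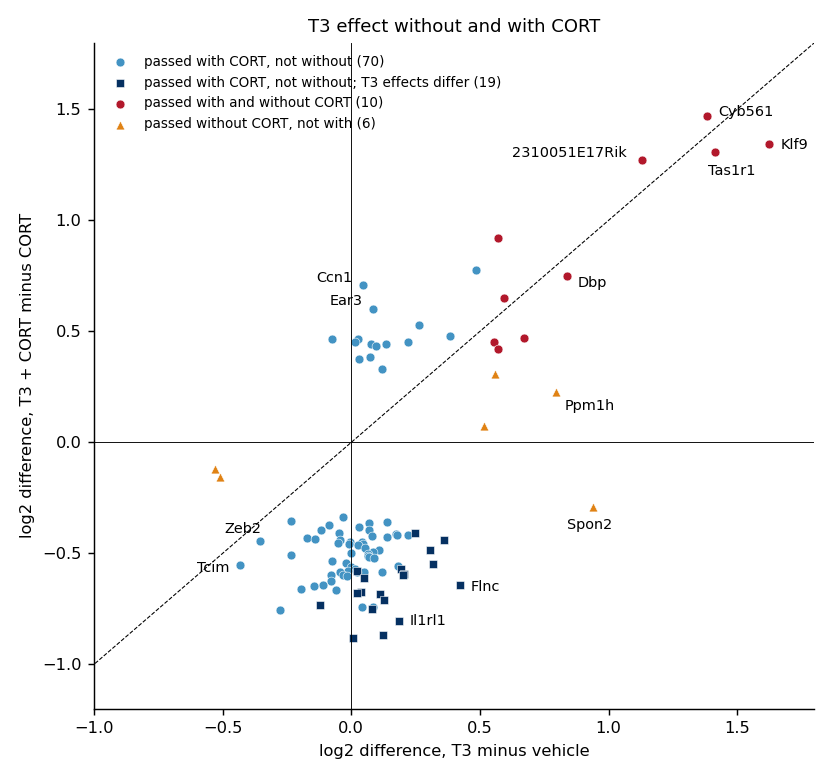
T3 effect with CORT (T3 + CORT minus CORT, log2, vertical axis) against the T3 effect without CORT (T3 minus vehicle, log2) for the 99 probes that passed with CORT and the 6 (triangles) that passed only without it; squares are the 19 whose T3 effects differed, the dashed line marks equal effects, and Spon2 also differed; the horizontal value of Cyb561 rests on vehicle signals under the limit. The 10 probes that passed in both lie in the upper right, the probes lowered with CORT spread around 0 on the horizontal axis, and Spon2 lies far to the right and slightly below 0.

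Across 25 lists of genes by pathway, members that passed were few. One probe stood for each gene, and of all 9574 genes tested 18 passed as higher (0.188%) and 48 as lower (0.501%), while 4.43% and 5.42% did so at an unadjusted p under 0.05. Of 15 thyroid hormone target genes tested, 2 rose (Klf9 and Dbp), none fell, and the median was -0.03, with Hr, a corepressor gene and T3 target in brain, at 0.04. Among 40 glucocorticoid-induced genes 2 rose (Klf9 and Errfi1) and 4 fell (Plin4, Angptl4, Fam107a and Cdkn1a). The median of that list was -0.11 and 31 of its 40 members were negative, against a median of 0.007 and 52.3% positive over all genes. By limma, at an unadjusted p under 0.05, 12 of the 40 were lower and 2 higher, against 5.42% and 4.43% of all genes. Klf9 thus passed in both lists, while Plin4 and Fam107a fell toward vehicle and Angptl4 fell further away from it. Among 40 collagen and matrix genes 3 fell (Dcn, Mfap5 and Col6a1) and none rose, with a median of -0.08. In the prolactin list 3 of 4 tested genes fell, which are the paralogs named above. Among 26 immediate early genes Egr1 rose and the median was -0.01, and Klf4 fell by 0.42 at another of its probes (adjusted p = 0.0334). Among 41 actin, SRF and YAP target genes Srf rose and Flnc fell (median -0.03), and among 26 Hedgehog and Wnt genes Cdon rose and Sox9 fell (median -0.02). Of 32 inflammatory genes 1 fell (Ccl7), and of 14 clock genes 1 rose (Dbp). The other lists with a pass held falls and no rise: Gas7 and Plxna2, a semaphorin receptor, of 35 axon guidance genes, Angptl4 and Plin4 of 30 lipid storage and oxidation genes, Aqp5 of 27 channel genes, Timp3 of 26 matrix protease genes and Gsta1 of 44 glutathione genes.

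In 10 lists no gene passed. By limma, at an unadjusted p under 0.05, 3 of 45 DNA replication genes were higher and 0 lower, 1 of 39 mitosis genes higher, 0 of 37 proteasome genes in either direction, 1 of 41 amino acid and stress response genes higher and 4 lower, 2 of 32 TGF-beta family genes higher and 5 lower, and 1 of 33 cholesterol and fatty acid genes in each direction. The methods' t-test called none of the 17746 probes after adjustment, in these lists or elsewhere. The 20 tested genes for receptors, cofactors and metabolism of both hormones had a median of -0.00 and 1 with an unadjusted p under 0.05, which was higher. The receptor genes themselves were near the limit of detection: Thra at a mean of 74.9 in CORT and 67.9 in T3 + CORT (log2 difference -0.14, adjusted p = 0.739), and Thrb at 57.3 and 54.4, below the limit on every array. The probe for the glucocorticoid receptor gene Nr3c1 read 80.5 and 81.1.

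Not every gene that glucocorticoids induce passed in T3 + CORT against CORT. Tsc22d3, the glucocorticoid-induced leucine zipper gene, read 10601, 10387 and 10255 in CORT and 8722.5, 7648 and 9668 in T3 + CORT, which did not pass (log2 difference -0.27, adjusted p = 0.311). Its T3 + CORT arrays all lay below its CORT arrays, and 16.7% of all tested probes had groups that did not overlap. Fkbp5, a chaperone of the glucocorticoid receptor, gave -0.11 (adjusted p = 0.752), Pdk4, a kinase that restrains pyruvate dehydrogenase, -0.09 (adjusted p = 0.828) and the 2 probes of the clock gene Per1 -0.11 and -0.03. In the study's RT-qPCR the mean of Pdk4 was lower in T3 + CORT than in CORT, while the means of Per1 were close. Reference genes lay close to 0, with Gapdh at -0.08 (adjusted p = 0.819), Ppia at -0.02 and -0.08, and none of 13 reference genes at an unadjusted p under 0.05. The 7 neuronal markers tested had a median of -0.01 and none passed, with summed signals of 2801 to 3234 in CORT and 2922 to 3121 in T3 + CORT. The 2 glial and immune markers tested did not pass, and the summed signal of that list was 2274 to 2509 in CORT and 2160.4 to 2218 in T3 + CORT, which do not overlap. Only 2 of its 19 genes, Cnp and Slc1a3, reached the limit of detection. The mean signal of Slc1a3 alone was 1063.8 in CORT and 878.8 in T3 + CORT, so the sums do not describe the list as a whole.

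**Figure D5:**
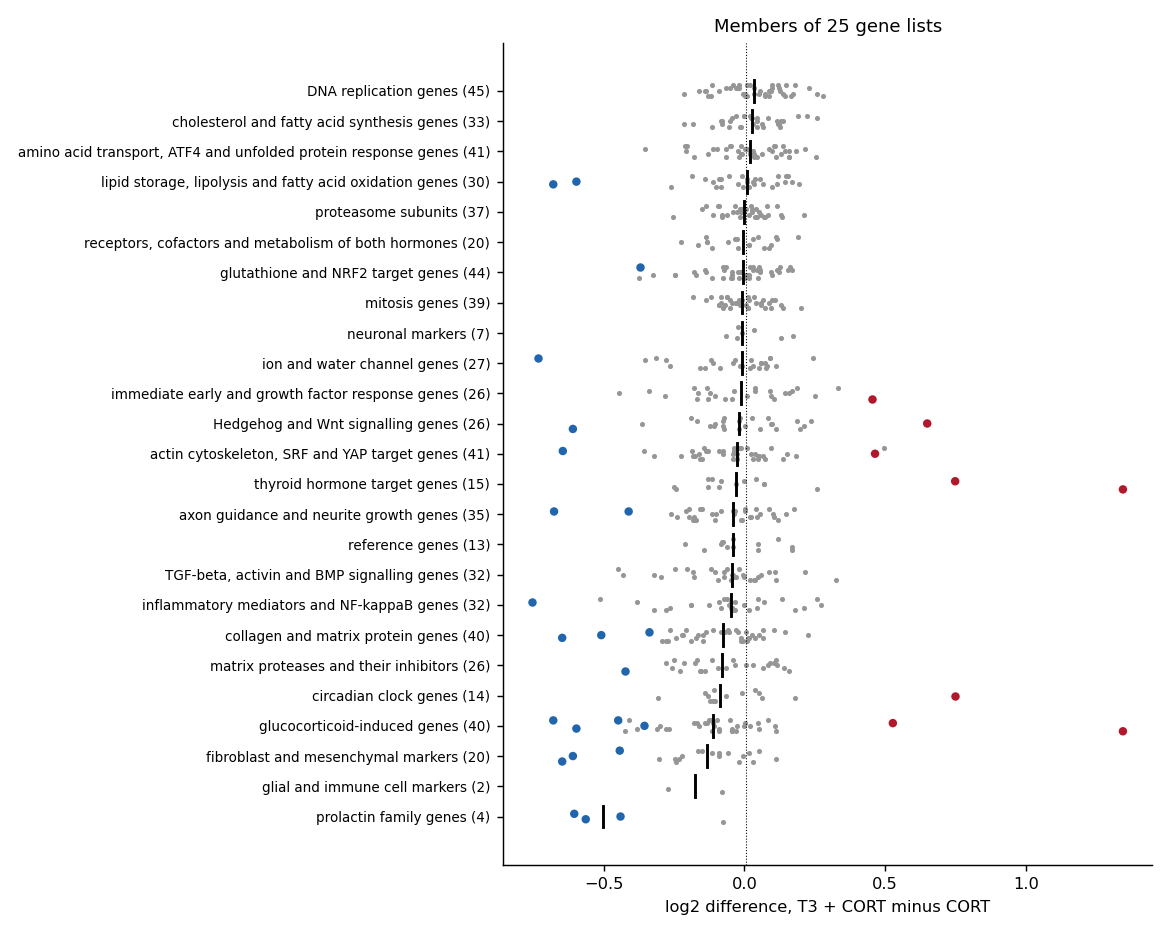
Log2 difference between T3 + CORT and CORT for each tested gene of 25 lists, at 1 probe a gene, with the median of each list as a bar, genes that passed in red (higher) or blue (lower) and a dotted line at the median of all genes. Most points lie around the line, and the lowest medians are those of the prolactin (-0.50), glial (-0.17, 2 genes), fibroblast (-0.13), glucocorticoid-induced (-0.11) and clock (-0.09) lists.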

How the data were processed

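RNA of HT-22 cells was measured on Illumina mouse WG-6 v2.0 bead arrays, 1 array per sample and 3 per group. The deposited intensity values are linear signals that, per the study's methods, the authors normalized by rank invariance in BeadStudio. All 12 arrays hold nearly the same distribution (largest difference at one rank 0.5; median 71.2 to 71.3), so a shift common to most genes would not be seen. Detection p-values come from a deposited table of non-normalized data, in which 12 signal columns carry names that match no sample and were not used. The 6 detection columns with signal set the limit of detection (87.0, from probes called detected at p under 0.05). The 6 remaining columns, with at most 5.4% of probes detected, were left out. Precision is limited by the number of arrays.

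The log2 signals were fitted in limma (version 3.58.1, R 4.3.3) as 4 group means over all 12 arrays, with 8 residual degrees of freedom, eBayes with a mean-variance trend and two-sided p-values adjusted by Benjamini-Hochberg over all tested probes. The contrasts were T3 + CORT minus CORT, T3 minus vehicle, and their difference. CORT minus vehicle was read for single probes only. Tables and figures were made with Python 3.11.15, pandas 2.3.3 and matplotlib 3.10.9. Of 45281 probes 34885 have 1 gene symbol in the platform annotation, 18 several and 10378 none, and 7 probes that passed were named through the study's gene tables. In simulated data of 17746 probes the fit of T3 + CORT against CORT recovered 20% of 50 probes changed 1.25-fold, 88% at 1.5-fold and 100% at 2-fold, and called 8 of 17546 unchanged probes. The test of the difference between T3 effects recovered 6%, 46% and 100%. The simulated noise was normal, independent and, for each probe, of 1 spread on all arrays. The real arrays had weights of 0.28 to 2.11, so these shares need not hold for them.

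The members and gene lists were chosen with earlier results of these data known. Genes were named by rule: the 15 probes that rose most and the 15 that fell most, given 1 symbol, a pass and no overlap between arrays, list members that passed, probes that passed in T3 against vehicle, and a fixed set. Other genes named were chosen after their values were seen. Alternatives were a Welch t-test on linear signals, a stricter limit of 105.4, no filter and a filter on the 6 arrays. Others were normexp with an offset of 16, cyclic loess, array weights, no trend and a fit of the 6 arrays alone. The last were the replicate number as a block and leaving out each array. The study's methods name a Welch t-test only for comparing T3 + CORT with the sum of the single hormones. Leaving out T3 replicates 1 and 2 was added after the data were seen.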

Additional observations from a re-analysis of the deposited data

Results flagged for a closer look

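For 20 probes the effect of T3 with CORT differed from its effect without CORT at an adjusted p under 0.05 in limma's test of the difference, and all 20 were more negative with CORT. The values are the T3 effect with CORT minus the T3 effect without CORT on the log2 scale. Spon2 stood at -1.23 and was raised by T3 alone. The probes of genes for membrane, cytoskeleton and muscle proteins were Flnc at -1.07, Dysf at -0.80, Popdc3 at -0.76 and Plec at -0.79 and -0.66. Receptors, channels and surface proteins were Il1rl1 at -0.99, Cd248 at -0.84, Nipal1 at -0.80 and Aqp5 at -0.61. Secreted proteins were Ccl7 at -0.83, Angptl4 at -0.80, Slurp1 at -0.79 and Col6a2 at -0.60. The other Ccl7 probe did not pass. Gas7 stood at -0.99, -0.89 and -0.71 on its 3 probes, Plin4 at -0.70 and Sox9 at -0.66. A probe without a gene name, ILMN_2526333, stood at -0.87. The T3 arrays, of which replicates 2 and 1 had the lowest array weights of the 12 (0.28 and 0.48), enter each of these differences, and their part in them was not tested beyond the counts given for arrays left out.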

How the results depend on the processing

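All 99 probes kept their direction in every alternative, and 35 of them (8 higher, 27 lower) passed without any 1 of the 12 arrays. The counts moved more. With array weights, 224 probes passed in T3 + CORT against CORT (66 higher, 158 lower), 61 in T3 against vehicle, 59 in the difference between the T3 effects, and 40 list members against 25. The Welch t-test gave 0 adjusted calls in T3 + CORT against CORT (1323 at an unadjusted p under 0.05) and 543 probes at p under 0.02. It also gave 0 in T3 against vehicle, 0 in both and 0 list members. With normexp 56 probes passed at p under 0.02 and 1.5-fold, against 36. Without T3 replicates 1 and 2, chosen after the data were seen, 211 probes passed at the adjusted threshold (57 higher, 154 lower), 1321 at p under 0.02 and 9 in the difference between the T3 effects. The replicate numbers were not taken to pair the samples: same-number correlations were -0.16, 0.14 and -0.04 between CORT and T3 + CORT, and 0.45, 0.35 and 0.09 between T3 and CORT, where each sample matched its own number best. With the number as a replicate block 98 probes passed, 90 of them shared, and 18 in the difference between the T3 effects, 17 shared. The cause of each shift was not tested.

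Leaving out 1 array at a time gave 42 (without T3 + CORT replicate 2) to 179 probes (without T3 replicate 2) in T3 + CORT against CORT, and 42 to 57 without any 1 of the 6 CORT and T3 + CORT arrays. It gave 602 to 1203 at p under 0.02, 34 to 40 with 1.5-fold as well, and 8 (without vehicle replicate 3) to 27 (without T3 replicate 2) in T3 against vehicle. It gave 6 to 12 in both, 2 (without vehicle replicate 2 or CORT replicate 2) to 20 in the difference between the T3 effects, and 11 (without T3 + CORT replicate 3) to 31 list members. Probes near the limit of detection have compressed folds, since no background was subtracted.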
